A study of Homo sapiens with 6 samples.

Results

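Krüppel-like factors (KLFs) are DNA-binding proteins that read GC-rich and CACCC-type sequences through zinc fingers at their carboxyl end. The members described here were KLF2, KLF4, KLF5, KLF6, KLF7, KLF9, KLF10, KLF11, KLF13 and KLF16, 10 genes picked by symbol from the array's platform annotation. Of these, 9 had at least 1 probe, 12 probes in all among the 47231 on the array, and KLF11 was not analysed here. A probe was counted as measured when its detection value was above 0.99 on all 3 arrays of at least 1 cell line. By that rule 9 of the 12 probes and 7 of the 10 genes were measured, out of 19384 probes and 11515 genes in the whole table.

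Total RNA of 2 human cell lines was hybridised to Illumina expression arrays, 3 arrays of JJ012 and 3 arrays of C28. JJ012 is a chondrosarcoma line, derived from a malignant tumour of cartilage, and C28 is a chondrocyte line that the labels give as the control. Both were plated at 5000000 cells per dish and kept for 24 h before lysis, with no further treatment named. Each line stands for its tissue through a single cell line, so differences between lines and differences between tumour and cartilage cannot be told apart. Whether the 3 arrays of a line hold RNA of different cultures is not stated, so each p-value measures only array-to-array spread, which could be technical. The small number of arrays limits the precision.

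Within the family, KLF2, KLF4, KLF5, KLF6 and KLF7 are best known as activators, while KLF9, KLF10, KLF11, KLF13 and KLF16 carry a motif that binds the SIN3A corepressor. KLF3, KLF8 and KLF12 repress through CTBP proteins. In mice Klf5 has been linked to breakdown of growth plate cartilage matrix, and KLF10 was first described as an early gene induced by TGF-beta in bone-forming cells. KLF2 and KLF4 are induced in endothelium through the MEK5, ERK5 and MEF2 cascade.

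KLF2, KLF6 and KLF5 carried the largest differences, and their promoters are printed here to describe the motifs they hold. Each is the 250 bases before an annotated transcription start, 5′ to 3′ on the gene's own strand, from RefSeq on GRCh38.p14. Capitals mark matches on either strand to the GC box (GGGCGG), the CACCC element (CACCC), the MEF2 site and the CArG box.
KLF2, chr19:16324576-16324825, plus strand: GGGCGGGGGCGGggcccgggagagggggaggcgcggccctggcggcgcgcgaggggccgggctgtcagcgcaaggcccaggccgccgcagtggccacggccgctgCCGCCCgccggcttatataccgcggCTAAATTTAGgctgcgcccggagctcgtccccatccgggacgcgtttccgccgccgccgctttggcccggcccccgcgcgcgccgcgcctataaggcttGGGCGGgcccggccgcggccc
KLF6, chr10:3785210-3785459, minus strand: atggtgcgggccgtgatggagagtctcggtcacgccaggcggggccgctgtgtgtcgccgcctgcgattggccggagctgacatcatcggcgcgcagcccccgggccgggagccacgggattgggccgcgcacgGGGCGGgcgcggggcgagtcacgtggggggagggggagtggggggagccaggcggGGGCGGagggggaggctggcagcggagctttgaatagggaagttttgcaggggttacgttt
KLF5 start 1, chr13:73054726-73054975, plus strand: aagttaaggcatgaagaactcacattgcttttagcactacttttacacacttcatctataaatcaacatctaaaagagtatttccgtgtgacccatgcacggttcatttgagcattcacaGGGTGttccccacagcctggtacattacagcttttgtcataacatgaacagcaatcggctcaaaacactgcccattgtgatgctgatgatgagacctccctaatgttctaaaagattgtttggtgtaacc
KLF5 start 2, chr13:73058755-73059004, plus strand: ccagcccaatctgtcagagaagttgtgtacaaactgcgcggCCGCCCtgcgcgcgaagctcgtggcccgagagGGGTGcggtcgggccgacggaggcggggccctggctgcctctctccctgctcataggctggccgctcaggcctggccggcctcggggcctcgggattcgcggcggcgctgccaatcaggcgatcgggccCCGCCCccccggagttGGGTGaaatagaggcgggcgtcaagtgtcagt

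The KLF2 window held 4 GC boxes and a MEF2 site, CTAAATTTAG, that lies 120 to 111 bases before the start. GC boxes are common, in 42.6% of the 35095 windows of this length from 27303 genes, whereas a MEF2 site was in 0.516% of them. The KLF6 window held 2 GC boxes and no match to the other motifs. The upstream KLF5 start had a window with 40.8% GC and 1 CACCC element, a motif in 54.7% of all windows. The downstream KLF5 start had 70.8% GC, 2 GC boxes and 2 CACCC elements. None of these 4 windows matched the CArG box, the site of serum response factor, which was in 1.16% of all windows. GC boxes were not particular to these genes: among members not called, the KLF4 window held 4, that of KLF13 3 and that of KLF9 0. A match is a description of the letters and does not show binding in either line.

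Before the results, 1 array needs a remark. On JJ012 replicate 1, 29 probes with bright C28 signal and none detected on JJ012 replicate 2 had a median of 10.7% of the C28 signal, with a 10th to 90th percentile of 9.59 to 12.3%. On JJ012 replicate 3 the same probes had 2.34%, and on JJ012 replicate 2, where they were chosen to be off, 0.436%. In the other direction, 10 probes bright in JJ012 were chosen to be off on at least 2 C28 arrays. They had 0.394, 0.707 and 0.380% of the JJ012 signal on the C28 arrays, low values that the choice itself favours. Log2 signals correlated at 0.986 to 0.992 within JJ012, 0.994 to 0.996 within C28 and 0.891 to 0.907 between lines over 15285 probes. Member values without that array are given beside each result it could touch.

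JJ012 cells had several times more KLF2, KLF6 and KLF5 signal than C28 cells, a KLF13 signal just short of 2-fold higher, somewhat less KLF9 and KLF4 signal, and KLF10 signals that overlapped between the lines. Of the 7 measured members, 3 were called higher in JJ012, at an adjusted p under 0.05 and a difference of at least 2-fold, against 13.7% of all genes tested. None was called lower, against 17.6% of all genes, and the count of members at an unadjusted p under 0.05 with the same fold was also 0 lower and 3 higher. The median log2 fold change of the measured members was 0.95, and that of all genes was −0.04. Signals of the lines did not overlap for 6 of the 7 members, KLF10 being the exception, and the same was so for 76.2% of all genes, so that a gap between the lines was the usual outcome here. By adjusted p alone, 4 members were higher, against 34.4% of all genes, and 2 were lower, against 38.1%. Counted by probe, 3 of the 9 measured member probes were called, against 29.8% of all measured probes.

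**Figure D1:**
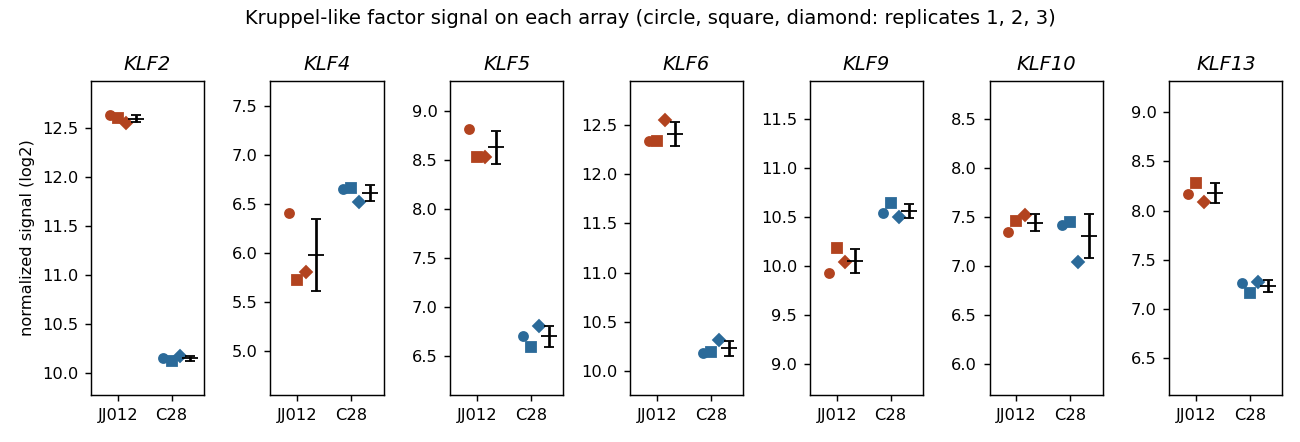
Normalized log2 signal of each measured KLF gene on the 3 JJ012 and the 3 C28 arrays, with each gene's own range on the vertical axis of a common span and bars for the mean ± SD. The JJ012 points lie above every C28 point for KLF2, KLF5, KLF6 and KLF13 and below them for KLF4 and KLF9, while those of KLF10 overlap.

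KLF2, which keeps endothelium and T lymphocytes quiescent, had the largest change of the family. Its probe, ILMN_1735930, read 5920, 5527 and 6041 intensity units on the JJ012 arrays, against 1458, 1166 and 1299 on the C28 arrays. The lowest JJ012 array was far above the highest C28 array. After normalization the log2 signal averaged 12.59 ± 0.04 in JJ012 and 10.15 ± 0.03 in C28 (SD, n = 3 each). The log2 fold change, JJ012 minus C28 in every value below, was 2.44 (SE 0.08, 95% interval 2.25 to 2.63, adjusted p = 3.91e-07), which is 5.43-fold. It ranked 314 by size among the rises of all 11515 genes. Without JJ012 replicate 1 it was 2.41. In RNA of a whole culture, more expressing cells and more transcript per cell cannot be told apart, here and for the other genes.

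KLF6, a broadly expressed factor induced after tissue injury and studied as a growth suppressor, rose nearly as much. The probe ILMN_1735014 read 4819, 4595 and 6046 intensity units on the JJ012 arrays and 1481, 1216 and 1426 on the C28 arrays. The third JJ012 array was the brightest, and none came near the C28 range. Log2 signal averaged 12.41 ± 0.12 in JJ012 and 10.23 ± 0.07 in C28 (SD, n = 3 each). The log2 fold change was 2.19 (SE 0.10, 95% interval 1.95 to 2.42, adjusted p = 1.38e-06), or 4.55-fold, with rank 396 among the rises. It was 2.21 without JJ012 replicate 1.

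KLF5, which drives proliferation in intestinal epithelium and smooth muscle, also rose, from a dimmer probe. ILMN_1770293 read 454.9, 366 and 414.3 intensity units on the JJ012 arrays, against 194.3, 159.5 and 186 on the C28 arrays. The first JJ012 array was the highest, and the lines were well apart. Log2 signal averaged 8.62 ± 0.16 in JJ012 and 6.70 ± 0.11 in C28 (SD, n = 3 each). On the log2 scale it rose by 1.93 (SE 0.12, 95% interval 1.66 to 2.19, adjusted p = 4.21e-06), or 3.80-fold, with rank 523 among the rises. This size depended on how background was treated, since it was 1.38 with no background correction, and it was 1.84 without JJ012 replicate 1.

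KLF4, a factor of epithelial differentiation and of reprogramming to pluripotency, lay near the detection limit in JJ012. The brighter of its probes, ILMN_2137789, read 133.2, 101.9 and 119.4 intensity units on the JJ012 arrays, against 190.4, 165.4 and 163.6 on the C28 arrays. It was detected on all 3 C28 arrays and on 2 of the 3 JJ012 arrays, with a detection value of 0.98961 on JJ012 replicate 2, so it counted as measured through C28. Log2 signal averaged 5.98 ± 0.37 in JJ012 and 6.61 ± 0.08 in C28 (SD, n = 3 each). The log2 fold change was −0.63 (SE 0.18, 95% interval −1.05 to −0.22, adjusted p = 0.0127), past the adjusted p but short of 2-fold, so the gene was not called. Its other probe, ILMN_1779857, was detected on all 6 arrays and gave −0.55 (SE 0.13, adjusted p = 0.0052 over all probes). Normalized KLF4 signal on JJ012 replicate 1 was 83.8% of the C28 mean, against 45.1 and 48.9% on the other two JJ012 arrays, and without that array the log2 fold change was −0.85. After subtraction of the estimated C28 share from JJ012 replicates 1 and 3 it was −0.70.

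KLF7, an activator known from neurons, was not measured. Its probe read 82.7, 87.6 and 101.1 intensity units on the JJ012 arrays and 107.9, 102.4 and 97.3 on the C28 arrays. The lines overlapped, and the highest detection value, on C28 replicate 2, was 0.98961, just under the limit. Fitted without the detection filter, its log2 fold change was −0.12 (adjusted p = 0.497).

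Among the members with a SIN3A-binding motif, none of the 3 measured was called, where 31.3% of all genes were called in either direction, which leaves little to read from 3 genes. KLF13, a regulator of CCL5 in T lymphocytes, came closest. Its probe, ILMN_1679929, read 311.3, 314.9 and 319 intensity units on the JJ012 arrays, against 254.6, 208.3 and 234.3 on the C28 arrays. The JJ012 arrays were tightly grouped and all above C28. Log2 signal averaged 8.18 ± 0.10 in JJ012 and 7.23 ± 0.06 in C28 (SD, n = 3 each). The log2 fold change was 0.95 (SE 0.09, 95% interval 0.73 to 1.17, adjusted p = 5.07e-05). At 1.93-fold it missed the fold limit, which lies inside its interval, and it stayed at 0.95 without JJ012 replicate 1.

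KLF9, a gene induced by glucocorticoids and thyroid hormone, was lower in JJ012. ILMN_1778523 read 920.4, 1058 and 1080 intensity units on the JJ012 arrays and 1892, 1647 and 1617 on the C28 arrays. The JJ012 arrays all lay below the C28 arrays. Log2 signal averaged 10.05 ± 0.13 in JJ012 and 10.56 ± 0.07 in C28 (SD, n = 3 each). The log2 fold change was −0.51 (SE 0.10, 95% interval −0.75 to −0.27, adjusted p = 0.00231), 1.42-fold lower in JJ012 and short of the fold limit. Without JJ012 replicate 1 it was −0.45.

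KLF10 showed no difference that passed the test. Its brightest probe, ILMN_2411897, read 201.6, 201.9 and 237.8 intensity units on the JJ012 arrays, against 278.1, 240.2 and 208.8 on the C28 arrays. Log2 signal averaged 7.44 ± 0.09 in JJ012 and 7.31 ± 0.23 in C28 (SD, n = 3 each), and the third C28 array was the lowest of the 6. The log2 fold change was 0.14 (SE 0.13, adjusted p = 0.369), and its 95% interval of −0.16 to 0.44 leaves room for a small difference either way. A second probe, ILMN_1659122, gave 0.49 (SE 0.18, adjusted p = 0.0394 over all probes), and ILMN_1667594 was not measured. That last probe read 91.9, 84.5 and 116.1 intensity units on the JJ012 arrays and 113.5, 114.1 and 112.9 on the C28 arrays. The probes of KLF10 therefore differed in whether they passed the adjusted p, and none passed 2-fold. Averaging the measured probes gave 0.31 (adjusted p = 0.0201), and leaving out JJ012 replicate 1 gave 0.18 (adjusted p = 0.281) for the brightest probe.

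KLF16 was not measured in either line. Its probe read 67.4, 68.8 and 82.8 intensity units on the JJ012 arrays and 86.6, 70.3 and 74.1 on the C28 arrays. Its detection values, 0.269 to 0.617 over the 6 arrays, were those of a probe at background, and the log2 fold change without the filter was 0.03 (adjusted p = 0.822).

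**Figure D2:**
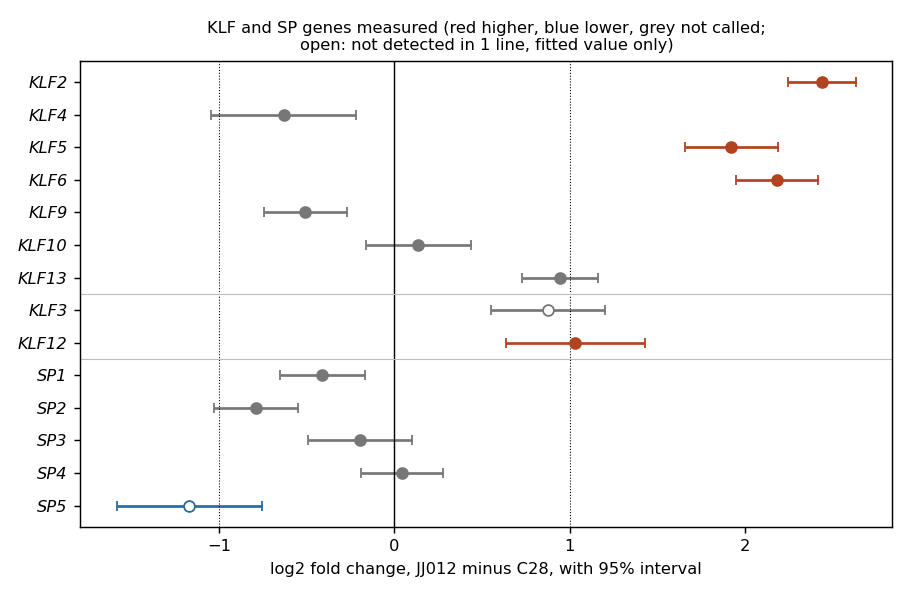
Log2 fold change, JJ012 minus C28, of every measured KLF gene and SP gene with its 95% interval, the dotted lines marking 2-fold. KLF2, KLF5, KLF6 and KLF12 are called higher and SP5 lower, and open circles mark KLF3 and SP5, whose fitted value compares a detected line with one not detected.

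Of the other KLF genes, 7 had a probe and 2 were measured, KLF3 and KLF12. KLF12 read 247.7, 192.7 and 249.7 intensity units on the JJ012 arrays, against 156.4, 174.4 and 171.7 on the C28 arrays. Its log2 fold change of 1.03 (SE 0.17, adjusted p = 0.000847) lay just past the limit. That call was lost in 10 of 22 alternatives, with values down to 0.65, among them without C28 replicate 1, at 0.86, and without JJ012 replicate 1, at 0.95. KLF3, a repressor of adipose and blood cell genes, was detected on all 3 JJ012 arrays and on no C28 array, so it counted as measured through JJ012. Its difference is at least 1.39-fold, below the fold limit (adjusted p = 0.000719 for the fitted difference, as beside every bound below). Its other probe, ILMN_1670245, was not measured.

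The SP factors are the closest relatives of the KLFs and read the same GC boxes. Of 8 SP genes with a probe, 5 were measured, and none was called higher. SP5 was called lower, but it was not detected on any JJ012 array, so its difference is at least 1.12-fold lower (adjusted p = 0.00052), and the call was lost in 4 of 21 alternatives, among them without C28 replicate 1. SP2 was at −0.79 (adjusted p = 0.000223) and SP1, the founding member, −0.41 (adjusted p = 0.0078), both short of 2-fold. SP3 had −0.20 (adjusted p = 0.197). SP4 had 0.04 (adjusted p = 0.715), a value that was −0.19 with arrays scaled by their medians, −0.020 after subtraction of the C28 share and −0.023 without C28 replicate 1. The median of the 5 SP genes was −0.41.

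The proteins that KLFs recruit were all measured, except for 1 gene of the 12 listed, and none of the 11 was called, against 31.3% of all genes called in either direction. Their median log2 fold change was −0.35. EP300, an acetyltransferase that acts with KLF activators, had the largest, −0.97 (SE 0.14, adjusted p = 0.000334). It was called lower in 7 of 22 alternatives, with values down to −1.21, among them adjusted p alone and without JJ012 replicate 1, at −1.12. With adjusted p alone left aside, 0 to 3 genes of the list were called lower over the alternatives. SIN3A, the corepressor bound by the KLF9 and KLF13 group, had −0.18 (adjusted p = 0.288).

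Ubiquitin ligases that act on KLF proteins set how long the proteins last. Of 8 measured, 1 was called higher and 2 lower, with a median of −0.25. WWP1, a ligase of KLF2 and KLF5, rose by 1.01 on the log2 scale (SE 0.09, adjusted p = 2.93e-05), and lost its call in 9 of 22 alternatives, with values down to 0.82, among them without C28 replicate 1, at 0.98, and without JJ012 replicate 2, at 0.99. BTRC fell by 1.22 on the log2 scale (SE 0.16, adjusted p = 0.000273), a call lost in 4 of 22 alternatives, with values up to −0.72. SIAH1 fell by 1.18 (SE 0.11, adjusted p = 2.90e-05) by its brightest probe, while its other measured probes had −1.51 and, uncalled, 0.58, and the mean of its probes, −0.70, was not called. FBXW7, whose product marks KLF2 and KLF5 for breakdown, had 0.996 (adjusted p = 0.00839), at the edge of the fold limit, and was called higher without C28 replicate 2, at 1.18, and without JJ012 replicate 2, at 1.27.

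Of the genes listed around the cascade that induces KLF2 and KLF4 in endothelium, 7 were measured, none called higher and 2 lower, with a median of −0.13. MAP2K5, which encodes MEK5, read 186.4, 176.7 and 210.7 intensity units on the JJ012 arrays, against 476.6, 374.8 and 370 on the C28 arrays. Its log2 fold change was −1.03 (SE 0.10, adjusted p = 3.93e-05). MAPK7, which encodes ERK5, read 246.6, 229.2 and 265 intensity units on the JJ012 arrays and 566.7, 515 and 532.1 on the C28 arrays, and had −1.02 on the log2 scale (SE 0.09, adjusted p = 2.22e-05). Both lay close to the limit: MAP2K5 lost its call in 6 of 22 alternatives, among them without C28 replicate 1, at −0.97, with values up to −0.76. MAPK7 lost it in 5 of 22, among them without C28 replicate 2, at −0.99, with values up to −0.81. CCM2, an adaptor gene in the same list, had 0.62 (adjusted p = 0.00768), higher in JJ012 and short of 2-fold. On the same JJ012 arrays KLF2 signal was higher and that of both kinases lower. Kinase activity was not measured, and a link between these values was not tested.

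TGF-beta pathway genes were listed because that signal induces KLF10 and KLF11. Of 9 measured, 5 were called lower and none higher, against 17.6% of all genes lower and 13.7% higher. The list median was −1.21, the value of SMAD7. SMAD2, SMAD4 and SMAD7 all lie on chromosome 18. Without JJ012 replicate 2, SMAD7 was not called, at −0.92, while TGFBR1 was called lower, at −1.03. Activity of the pathway was not measured. SMAD3, a receptor-activated mediator, read 549.7, 466.4 and 435.8 intensity units on the JJ012 arrays, against 3598, 2508 and 2833 on the C28 arrays. It fell by 2.48 on the log2 scale (SE 0.14, adjusted p = 3.13e-06). The ligand gene TGFB2 fell by 2.18 (SE 0.12, adjusted p = 3.02e-06) and SMAD2 fell by 1.87 (SE 0.12, adjusted p = 5.40e-06), its probe being detected on 2 of 3 JJ012 arrays. KLF10 itself, in the same arrays, had signals that overlapped between the lines.

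Early response genes, the class to which KLF2, KLF4, KLF6 and KLF10 belong after serum or stress, went both ways. Of 12 measured, 4 were called higher and 2 lower, with a median of 0.40, and the shares of all genes given above hold for this and the other lists too. FOS, a subunit of the AP-1 factor, read 1365, 373.6 and 1081 intensity units on the JJ012 arrays, against 257.4, 248.4 and 226.6 on the C28 arrays. Its second JJ012 array was much the lowest of the 3, a spread not seen for KLF2 or KLF6, and its log2 fold change was 2.38 (SE 0.44, adjusted p = 0.0015). DUSP1, a phosphatase of MAP kinases, rose by 1.71 (SE 0.10, adjusted p = 3.24e-06) and FOSB by 1.71 (SE 0.33, adjusted p = 0.00182), though FOSB was at 0.87 and not called with JJ012 replicate 2 alone for JJ012. EGR1, a zinc-finger factor that also reads GC-rich sites, read 791.9, 402 and 783.4 intensity units on the JJ012 arrays, against 2177, 1769 and 1487 on the C28 arrays. It fell by 1.32 (SE 0.26, adjusted p = 0.00206), and IER5 fell by 1.16 (SE 0.08, adjusted p = 9.93e-06).

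Glucocorticoid and clock genes were listed beside KLF9, which responds to both. Of 11 measured, 2 were called higher and 1 lower, with a median of 0.25. ZBTB16, a zinc-finger gene strongly induced by glucocorticoids, was not detected in C28 and at least 8.23-fold higher in JJ012 (adjusted p = 1.38e-06). FKBP5, a co-chaperone gene induced by the same hormones, rose by 1.19 (SE 0.14, adjusted p = 0.000121) but was at 0.99, uncalled, with median scaling, and the clock repressor CRY1 fell by 1.26 (SE 0.10, adjusted p = 1.22e-05). KLF9 itself was lower in JJ012, short of 2-fold.

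Genes reported as targets of KLFs moved in both directions. Of 27 listed, 17 were measured, 7 called higher and 4 lower, with a median of 0.17. MMP3, a matrix protease gene, read 1153, 563.9 and 1262 intensity units on the JJ012 arrays and 92.8, 93.9 and 96.1 on the C28 arrays, where it was not detected, and was at least 21.7-fold higher in JJ012 (adjusted p = 2.76e-06). SFN, which encodes the cell cycle protein 14-3-3 sigma, rose by 3.46 on the log2 scale (SE 0.17, adjusted p = 1.69e-06). NOS3, the endothelial nitric oxide synthase gene that KLF2 activates in endothelium, was not detected in C28 and at least 2.61-fold higher in JJ012 (adjusted p = 8.77e-06).

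Of the targets called lower, PPARG, the adipocyte regulator that KLF2 represses and KLF5 activates during fat cell formation, fell by 3.60 (SE 0.23, adjusted p = 5.99e-06) and was detected on 1 of 3 JJ012 arrays. Its JJ012 readings, 124.7, 91.6 and 108 intensity units, were highest on replicate 1, the array with the largest C28 share, and a link was not tested. Over 21 alternatives its log2 fold change ran from −4.52 to −2.41. VCAM1, an adhesion gene that KLF2 holds down in endothelium, was not detected in JJ012 and at least 3.49-fold lower there (adjusted p = 2.05e-06). PDGFA, a growth factor gene bound by KLF5 in smooth muscle, fell by 1.66 (SE 0.09, adjusted p = 2.17e-06). CDKN1A, the cell cycle inhibitor gene that KLF4 and KLF6 activate, had −0.70 (SE 0.16, adjusted p = 0.00401) and was not called. CCL5, the target gene of KLF13 in T lymphocytes, had −0.03 (adjusted p = 0.847).

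Partners of KLF2, KLF4 and KLF5 in pluripotent cells were mostly not measured. Of 12 with a probe, 5 were measured, none called higher and 2 lower, with a median of −0.28. SALL4 fell by 2.35 (SE 0.24, adjusted p = 5.94e-05) and was detected on 2 of 3 JJ012 arrays. It read 118.5, 85.3 and 121.6 intensity units there, lowest on replicate 2, where the probes behind the C28 share were chosen to be off. A link between that share and these readings was not tested. Over 21 alternatives SALL4 ran from −3.01 to −1.38. TBX3 fell by 2.01 (SE 0.14, adjusted p = 7.00e-06). MYC, counted in this list and among the early response genes, had 0.99 (adjusted p = 0.00215) by its brightest probe, uncalled, and its other probe was called higher at 1.06. The brightest probe was called without C28 replicate 2, at 1.02, and without JJ012 replicate 2, at 1.20.

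**Figure D3:**
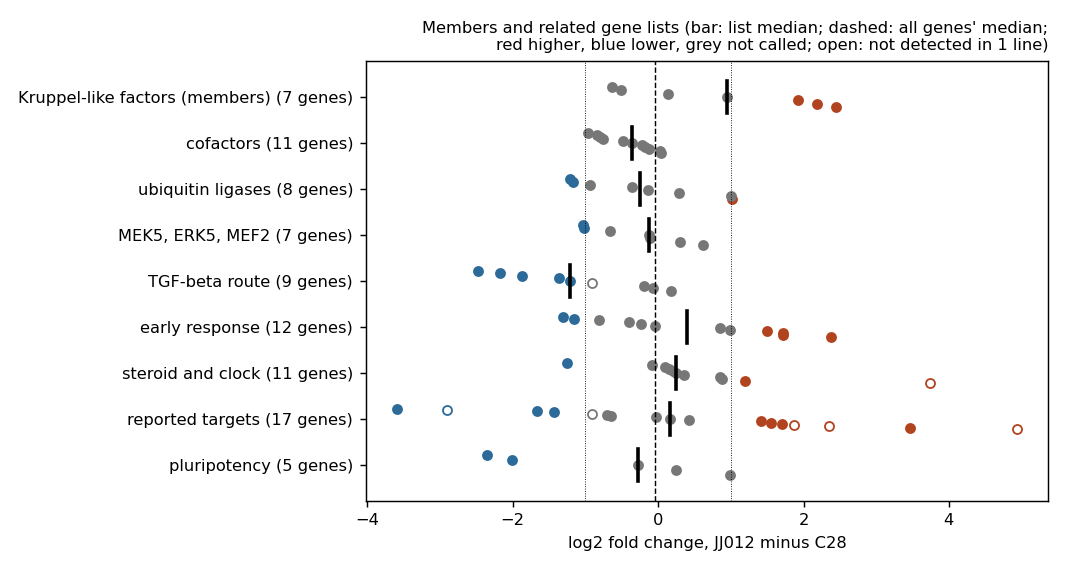
Log2 fold change, JJ012 minus C28, of each measured gene in the member list and 8 related lists, with a bar at the list median and a dashed line at the median of all genes. The member median of 0.95 lies to the right and the TGF-beta median of −1.21 to the left of the median of all genes, −0.04.

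Both lines were checked against markers of cartilage and of other cell types. Of 14 cartilage markers, 2 were measured: SOX9, the regulator of cartilage fate, at −0.53 (adjusted p = 0.0113), and MATN3, not detected in JJ012 and at least 3.24-fold lower there (adjusted p = 6.64e-06). ACAN and COMP were not detected on any array, and COL2A1 was detected by 1 of its 2 probes on 1 C28 array and on no JJ012 array, so the defining cartilage matrix transcripts were at or near the detection limit in both lines. All 9 fibroblast markers were measured, 3 called higher and 5 lower. Endothelial markers, which matter for KLF2 and NOS3, had 1 of 7 measured: PECAM1, not detected in C28, was at least 1.67-fold higher in JJ012 (adjusted p = 0.00018), while CDH5, VWF and KDR were not measured. Of 7 epithelial markers, where KLF4 and KLF5 are best known, 4 were measured, 1 higher and 2 lower. Of 6 leukocyte markers 2 were measured, CSF1R higher and CD14 lower. The part of these marker differences in the KLF values was not tested.

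Neighbouring genes on the chromosome were read in RefSeq order, 5 measured genes on each side of a member. Over all genes tested, 13.7% were called higher and 17.6% lower, shares to be read beside the counts around every member. A positive log2 fold change was found for 5530 of the 11515 genes. Around KLF5 on chromosome 13, 4 of 10 neighbours were called higher and none lower. All 10 had a positive log2 fold change, and their median was 0.75. Among them PIBF1, next to KLF5 in this order, had 1.83 and DIS3 1.37, a call that DIS3 lost in 2 of 22 alternatives. KLF12, the next measured gene on the other side, is counted among those called, though it lost its call in 10 of 22 alternatives. Around KLF6 on chromosome 10, 6 of 10 were called higher and none lower, with a median of 2.13. They included the RNA gene MANCR at 3.76 and the aldo-keto reductase genes AKR1C3 at 2.96 and AKR1C4 at 4.74, with AKR1C2 not detected in C28 and at least 25.7-fold higher in JJ012. The AKR1C genes are near-identical in sequence, so their probes may not tell them apart. Immediately before KLF6, PITRM1 had −0.73, so the higher signal did not cover all neighbours.

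Around KLF2 on chromosome 19, 2 of 10 neighbours were called higher and none lower, with a median of 0.34. Around KLF13 on chromosome 15 the counts were 1 higher and 1 lower with a median of −0.07, and around KLF9 on chromosome 9 they were 2 and 2 with 0.27. KLF4, also on chromosome 9, had 1 neighbour higher and 3 lower with a median of −0.21. Around KLF10 on chromosome 8, 1 was higher and 5 lower, with a median of −1.10, while KLF10 itself was not called. Copy number was not measured here, and its part in these values was not tested.

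**Figure D4:**
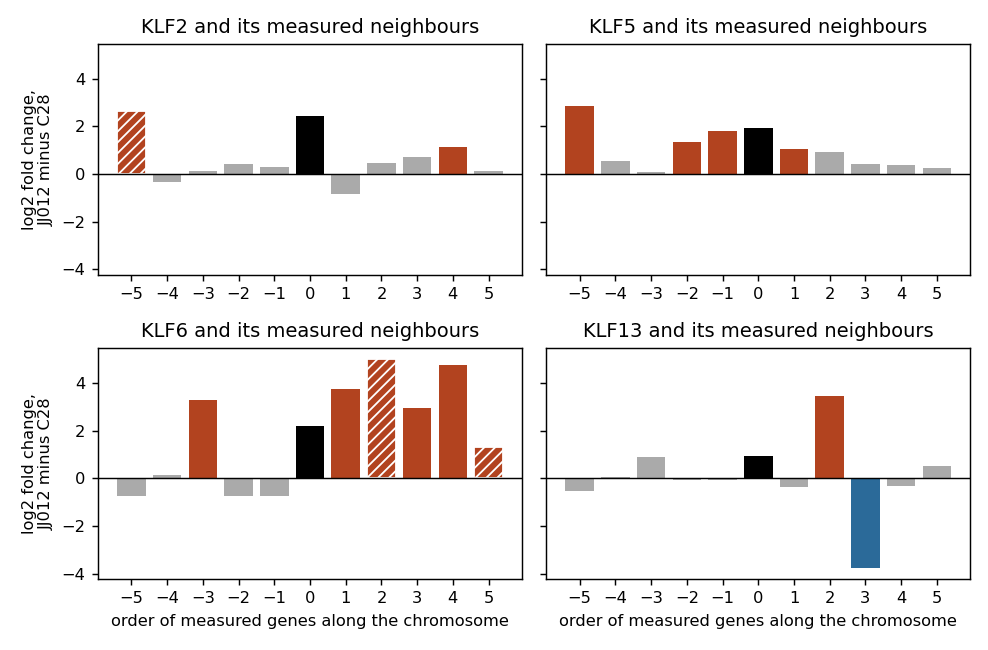
Log2 fold change, JJ012 minus C28, of KLF2, KLF5, KLF6 and KLF13 (black, position 0) and of the 5 measured genes on each side, in chromosome order, with called genes in red (higher) or blue (lower) and hatching where C28 had no detected signal. All 10 neighbours of KLF5 lie above 0, while those of KLF2, KLF6 and KLF13 lie on both sides of it.

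The genes whose pattern over the 6 arrays was most like that of KLF2 were TRAPPC4, TTC12 and CCN3. Likeness was the root mean square distance between log2 signals, each centred on the gene's own C28 mean. With 2 lines this distance mostly reflects the fold change, so near fold changes follow from the choice and show no shared regulation. The distance was 0.08 for TRAPPC4, 0.08 for TTC12 and 0.10 for CCN3, whose log2 fold changes were 2.41, 2.45 and 2.51. For KLF9, the member with the lowest log2 fold change among those whose brightest probe was detected on all 6 arrays, the nearest were HELZ2 at 0.02, SAE1 at 0.03 and WDR27 at 0.04, with log2 fold changes of −0.51, −0.50 and −0.51.

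**Figure D5:**
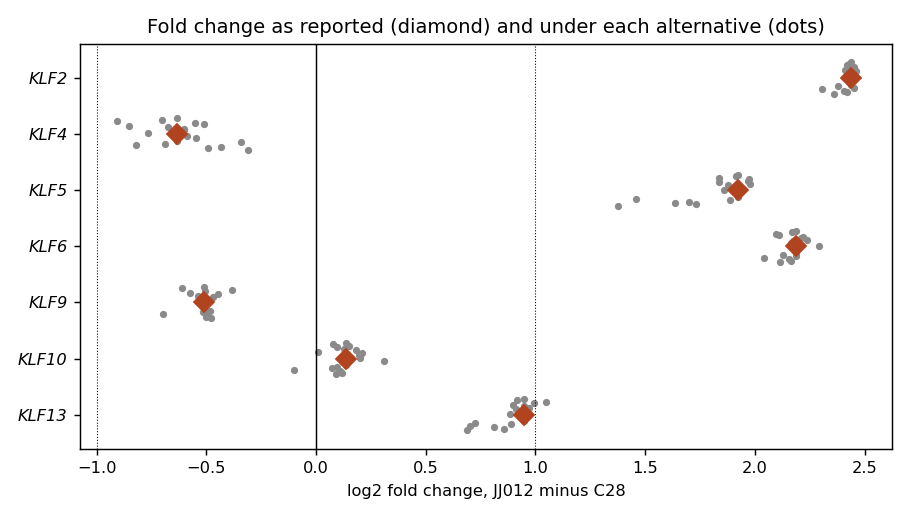
Log2 fold change, JJ012 minus C28, of each measured KLF gene as reported (diamond) and under each of 22 alternatives (dots), the dotted lines marking 2-fold. KLF2, KLF5 and KLF6 stay above 1 in every case, at 1.38 or more, while KLF13 spans 0.69 to 1.05 and KLF10 lies on both sides of 0.

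The authors' deposited table of normalized log2 values gave JJ012 minus C28 differences of 2.38 for KLF2, 2.13 for KLF6, 1.46 for KLF5, 0.73 for KLF13, 0.10 for KLF10, −0.34 for KLF4 and −0.49 for KLF9. In that table KLF5, KLF13 and KLF4, the dimmer probes, had smaller differences than after background correction, and KLF2, KLF6 and KLF9, the brighter ones, were close to the values above.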

How the data were processed

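Total RNA of JJ012 and C28 cells was measured on Illumina arrays, 3 per line. The authors deposited a linear intensity per probe and array, without background subtraction or normalization. A fraction per probe and array was deposited under a detection heading. Since bright probes are at 1 there, the column was taken as 1 minus a detection p. A further table of the authors holds log2 values, centred per probe on the median over the 6 arrays. Its log2 scale and direction come from regressing an array difference in it on that in log2 intensity (slope 0.985, r = 0.998 over 15285 probes). Column medians were −0.003, 0.004 and 0.003 for JJ012 and −0.001, −0.001 and 0 for C28. How it was normalized stays unknown, and it served as an alternative.

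Intensities were processed in R 4.3.3 by the neqc function of limma 3.58.1 (offset 16, quantile normalization, negative controls inferred from detection values). Detected means a detection p under 0.01, and probes detected per array numbered 17888, 17826 and 18378 for JJ012 and 18922, 19332 and 19301 for C28. Of all probes, 30113 had 1 gene symbol, 8 had several and 17110 had none listed, and 30074 matched the RefSeq table of GRCh38.p14, which gave names, gene order and promoters. The brightest measured probe stood for a gene, 3132 genes had more than 1 measured probe, and in 8 of them probes were called in opposite directions. Lines were compared with limma (lmFit and eBayes, two-sided), with Benjamini-Hochberg adjustment over the 11515 genes, and each "adjusted over all probes" value came from a fit of the 19384 measured probes. The fit was tested first on simulated data with 200 changed genes, far fewer than the 3599 called here. A gene not detected in 1 line got a bound, its mean in the brighter line against, per array of the other, the higher of its own signal and the lowest detected signal. The adjusted p printed beside a bound belongs to the fitted difference and does not test the bound.

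The members and related lists were chosen with earlier results of these data known. Named genes were all members, the measured KLF and SP genes, and of each other list up to 3 called genes in each direction or, with none called, the gene with the largest change. SIN3A, FBXW7, CDKN1A, CCL5, MYC, CCM2, SOX9, SMAD4, SMAD7, TGFBR1 and the unmeasured markers, like the neighbouring genes, were named outside that rule after their values were seen. Replicate numbers were checked for pairing through each array's deviations from its own line's mean. These correlated at −0.038, −0.073 and 0.065 for same-numbered arrays and at −0.087 to 0.093 for the others. The arrays were not treated as pairs.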

Additional observations from a re-analysis of the deposited data

How the results depend on the processing

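The 22 alternatives covered background correction, normalization, filters, probe choice, weights, left-out arrays and the call rule. All kept KLF2, KLF5 and KLF6 called higher, with log2 fold changes of 2.31 to 2.46, 1.38 to 1.98 and 2.04 to 2.29. Each of these genes had only 1 probe, detected on all 6 arrays, so filters and probe choice could not change its value. Adjusted p alone could only add calls. KLF13 was also called when JJ012 replicate 2 alone stood for JJ012, at 1.05 (limma adjusted p = 0.000278), which brought the members called higher to 4, and this single array was assumed to vary like C28. With adjusted p alone as the rule, KLF13 at 0.95, KLF4 at −0.63 and KLF9 at −0.51 passed as well, so 2 members counted as lower in place of 0, beside 34.4% of all genes passing higher and 38.1% lower. KLF10 reversed with median scaling, to −0.10 (adjusted p = 0.548). That scaling moved the median of all genes to −0.23 from −0.04 and the share of lower genes among the calls to 67% from 56.3%. Leaving out 1 array at a time gave 2.41 to 2.46 for KLF2, 1.84 to 1.98 for KLF5, 2.11 to 2.24 for KLF6, 0.90 to 0.99 for KLF13, 0.01 to 0.21 for KLF10, −0.57 to −0.45 for KLF9 and −0.85 to −0.51 for KLF4, whose adjusted p reached 0.0493. The 3599 genes called became 2257 without background correction, 2057 when detection on all 6 arrays was required (9399 genes tested), 8344 by adjusted p alone and 3552 to 3770 with 1 array left out. With the replicate block the count stayed 3599 and no member's call changed, and the numbers are not known to pair the arrays. Of 62 other genes, picked by the naming rule, by likeness or as called neighbours of KLF2, KLF5 and KLF6, 41 kept direction and call throughout. Some of these are not named above, and genes named outside the rule, such as FBXW7 and MYC, are not counted. SP4 alone of the 62 reversed, to −0.19 with median scaling, −0.020 after subtraction of the C28 share and −0.023 without C28 replicate 1. Its values ran from −0.023 to 0.11 when each array was left out in turn. With adjusted p alone left aside, list counts moved most for the KLF targets, 4 to 7 higher and 2 to 5 lower, and for 3 other lists. The fibroblast markers had 0 to 3 higher and 3 to 5 lower. Genes of proteins that KLFs recruit had 0 to 3 lower, and glucocorticoid and clock genes 1 to 4 higher. Causes were not tested. A fit with the slide as a block was not run, since the sources used here name no slide. Signal over background limits KLF4 in JJ012, and KLF7 and KLF16 in both lines.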
